A study of Caenorhabditis elegans with 4 samples.

Results

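The sites described here are the strongest binding regions of NHR-23 that the study listed in L3 larvae of Caenorhabditis elegans, a nematode. They were selected on the peak number, as the entries numbered 1 to 500 in the combined peak list of the series, which stands beside 1 list for each of 2 chromatin immunoprecipitation (ChIP-seq) replicates. A pair of regions appeared under more than 1 number within this range, so the 500 entries were 498 distinct regions, out of 6142 distinct regions among the 6178 entries of the whole list. The remaining 5644 regions, numbered above 500, were used for comparison. The peak number had to serve for ranking because the authors' score takes a single value throughout the combined list. How the list was numbered is not stated, so reading the lowest number as the strongest site is an assumption.

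All animals were hermaphrodites of strain OP43, grown at 20 °C to the L3 stage. Their genotype was unc-119(ed3) with the transgene wgIs43, which encodes nhr-23 joined to TY1, EGFP and FLAG tags and carries unc-119 as its marker. The transgene was introduced by bombardment into 1 strain, and the labels name no change at the endogenous nhr-23 gene. The series describes 2 ChIP samples, recovered through the GFP tag, and 2 Input samples of the same lysates, which were not analysed here. Whole worms were used, so binding in different tissues cannot be told apart, and a peak list holds no expression values against which a cell type could be checked. The labels do not say whether the replicates came from separate cultures.

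NHR-23 is a nuclear hormone receptor, a transcription factor of the same family as Drosophila HR3 and the mammalian ROR receptors. In C. elegans it is expressed in the epidermis in step with each larval moult, and animals that lack it fail to shed and rebuild the cuticle. ChIP-seq lists stretches of DNA that were recovered with the tagged protein, and a strong peak is one where many more fragments were recovered than in its surroundings. No genome or annotation of the build used by the lists (WormBase WS220) was used here, so sites are given by position, and neither the genes beside them nor their sequences are described.

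The strongest sites were near the top of each replicate list. Within the set the combined number followed the replicate numbers (Spearman rho 0.862 for replicate 1 and 0.849 for replicate 2), and low numbers are called strong here. The replicate numbers are given as a description with no test. Every one of the 498 sites overlapped a peak of replicate 1 and a peak of replicate 2, as did every peak of the second block of 500 numbers and 98.3% of all peaks above 500. Their replicate 1 numbers ran from 1 to 1237 with a median of 262.5, and their replicate 2 numbers from 1 to 1461 with a median of 256. In both replicates all 498 matching peaks sat at the ceiling of the authors' score, a value shared by 4826 of 29981 distinct regions in replicate 1 and 11736 of 25124 in replicate 2. The score thus did not order these sites in any of the 3 lists, and only the peak number did.

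Of the 498 sites, 341 (68.5%) were within the first 500 of both replicates, against 5.58% over all distinct combined peaks. With the first 1000 of each, 487 sites (97.8%) qualified, against 11.8% over the whole list. The first 500 of a single replicate therefore did not coincide with the set. Among the distinct regions in the first 500 of replicate 1, 424 lay on these sites and 59 on combined peaks with higher numbers, the highest being 1074. In replicate 2, 412 lay on these sites and 78 on combined peaks of higher number, up to 1100.

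The replicate numbers spread out down the set, as the choice by combined number lets them do. Among numbers 1 to 100, all 100 sites were within the first 500 of both replicates, and the highest replicate numbers were 220 and 201. The count within the first 500 of both was 97 of 99 sites among numbers 101 to 200, 85 of 99 among numbers 201 to 300, 51 of 100 among numbers 301 to 400 and 8 of 100 among numbers 401 to 500. In that last step the median replicate numbers were 488 and 491, so the limit of 500 runs through it and the count must fall there. Over the 498 sites the replicate numbers correlated with Spearman rho 0.519, a value that the selection of sites limits and for which no p is given.

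**Figure D1:**
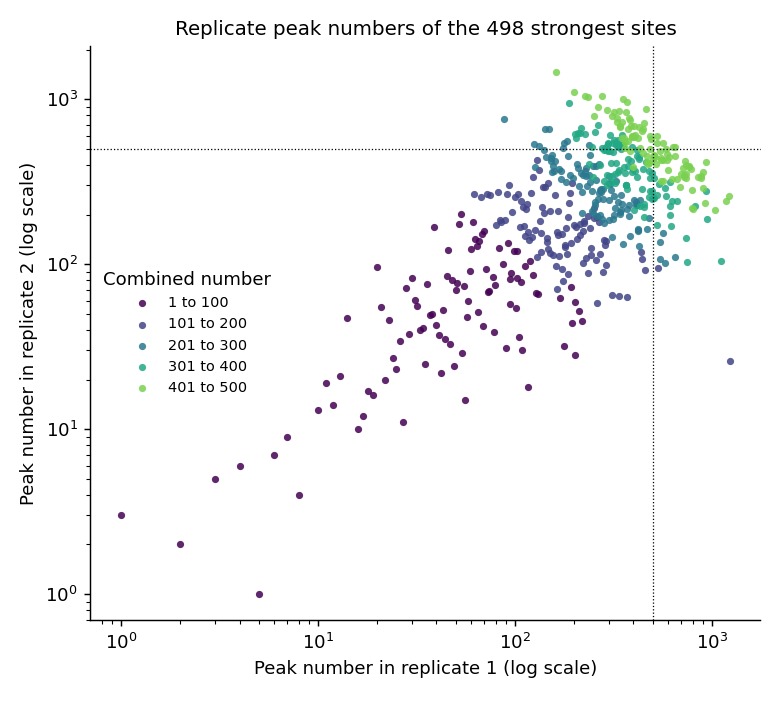
Each point is 1 of the 498 strongest sites, placed by its peak number in replicate 1 (x axis, log scale) and replicate 2 (y axis, log scale) and coloured by its combined number in steps of 100; dotted lines mark number 500. The first 100 sites all lie in the lower left corner within both dotted lines, and sites numbered 401 to 500 mostly lie beyond one of the lines, with 8 of 100 within both.

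A few sites had very different numbers in the replicates. The site on X at 6743660 to 6744314 (combined number 181) stood at 1237 in replicate 1 and at 26 in replicate 2. Also on X, the site at 11030994 to 11031605 (number 483) stood at 162 and 1461 in these lists. These are opposite cases, and they had the largest differences between replicate numbers in the set. The next 3 all had the higher number in replicate 1. A site on chromosome V at 9730950 to 9731336 (number 344) was number 1107 there and 104 in replicate 2. Its only overlapping replicate 1 peak was centred 253 bp from the combined centre, and a neighbouring combined peak lay 261 bp from that centre. Whether 1107 is the number of the neighbour's peak was not tested. A site on chromosome IV at 9198178 to 9198383 (number 484) was number 1224 and number 260, and another on the same chromosome at 4294589 to 4294900 (number 495) was number 1179 and number 242.

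The boundary at number 500 separates sites of nearly the same standing. The last 50 sites inside had a median number of 589 in replicate 1 and 480.5 in replicate 2. The first 50 outside had medians of 594 and 567. The last site inside, on chromosome III at 5710669 to 5710925, was number 929 in replicate 1 and 417 in replicate 2. The first outside, on X at 15275073 to 15275584, was number 995 and number 296. The median widths of these 50 sites were 271 bp inside and 263 bp outside.

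The replicates placed the strongest sites at nearly the same base. The centres of the matching peaks of replicates 1 and 2 lay a median of 11 bp apart (quartiles 5 and 22 bp, range 0 to 218 bp). For combined peaks above 500 the median was 33 bp (quartiles 13 and 68 bp, n = 5550 found in both). The distance was at most 100 bp at 490 of 498 sites (98.4%, exact 95% interval 96.9 to 99.3), against 85.3% of all combined peaks. The second block of 500 numbers had nearly the same share, 97.8% (96.1 to 98.9). A distance of at most 20 bp was found at 364 sites (73.1%, 69.0 to 76.9) and at 55.2% (50.7 to 59.6) of the second block. Of peaks above 500, 34.4% (33.2 to 35.7) were that close. Intervals here and below are exact binomial intervals, and they cover counting error only.

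When the combined list was cut into blocks of 500 numbers, the median distance was 18 bp in the second block and between 18 and 61 bp over the 11 other complete blocks. The strongest block was below all of these. The median distance from the centre of the combined peak was 8 bp to its replicate 1 peak and 6.5 bp to its replicate 2 peak in the strongest sites, against block medians of 14 to 25 bp and 8 to 26 bp. Offset and rank come from the same replicate peaks, so these values are given without a test.

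**Figure D2:**
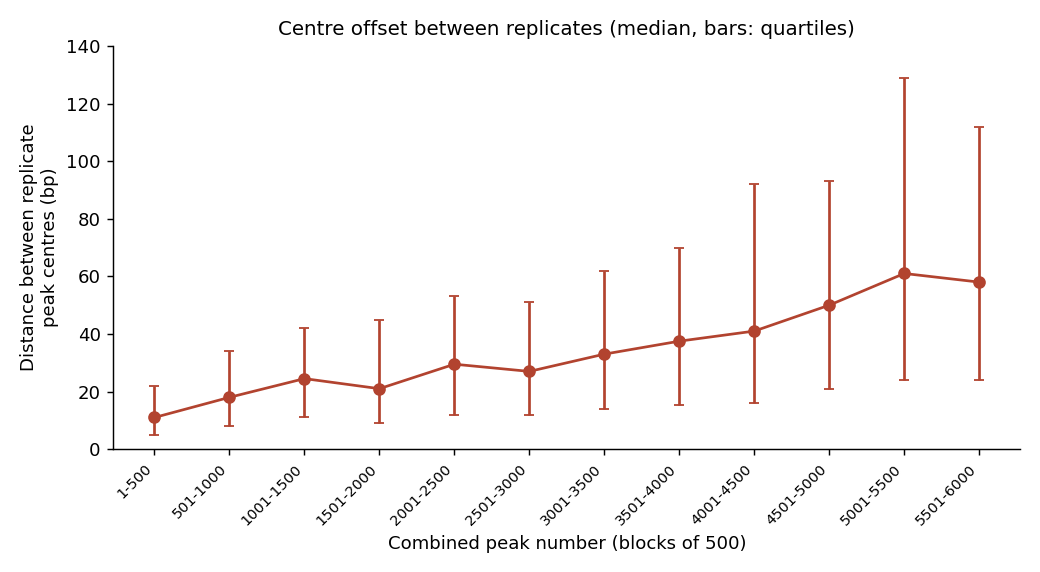
Points are the median distance in bp between the centres of the replicate 1 and replicate 2 peaks matching a combined peak, for each complete block of 500 combined numbers, with bars from the lower to the upper quartile. The median is 11 bp for numbers 1 to 500 and between 18 and 61 bp in the other blocks, and the bars widen with peak number.

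Within the set, the offset changed little with rank. Its median was 9 bp among numbers 1 to 100 and 15 bp among numbers 401 to 500. The 8 sites whose replicate centres lay more than 100 bp apart were all numbered above 300, since 100 of 100, 99 of 99 and 99 of 99 sites of the first 3 steps of 100 numbers were within that distance. The largest offset, 218 bp, belonged to the chromosome V site numbered 344, which has another combined peak 261 bp from its centre. It was followed by 192 bp at a site on chromosome I at 9382777 to 9383089 (number 478, neighbour at 211 bp) and by 190 bp at the X site numbered 483. Next came 134 bp on chromosome I at 8865405 to 8865864 (number 338) and 133 bp on chromosome IV at 9444422 to 9444775 (number 342, neighbour at 203 bp). Of these 5 sites, 3 thus had a further combined peak within 300 bp. At number 344 the replicate 1 centre lay 253 bp from the combined centre and the replicate 2 centre 35 bp. At number 478 these distances were 203 and 11 bp. Each of these sites overlapped a single replicate 1 peak, centred about as far away as the neighbour. Whether that peak belongs to the neighbour, or the neighbour bears on the offset, was not tested.

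Peak width differed between the strongest sites and the rest of the list, and it is described without a test because width and number come from the same peaks. The strongest combined peaks were 205 to 989 bp wide, with a median of 293 bp (quartiles 253 and 369 bp). None of the 498 had the commonest width of the list, 380 bp (0%, upper limit 0.738%), which 58.6% of all combined peaks had. Of the 498, 109 (21.9%) were wider than 380 bp and 389 were narrower. A width of 500 bp or more was found at 42 sites (8.43%, 6.15 to 11.2), against 1.32% of all combined peaks and 0.691% (0.492 to 0.943) of those above 500. In the second block the share was 4.02% (2.47 to 6.13).

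The relation of width to rank along the list was not monotonic. Median width fell from 293 bp in the strongest block to 227.5 bp in the second block, 193 bp in the third and 176.5 bp in the fourth. It was 202 bp in the fifth block and 380 bp in each block past number 2500. There most peaks had the commonest width itself, 67.3% of those numbered 2501 to 3000 and 96.8% of those numbered 5501 to 6000. The low point of the curve therefore lay between peaks of individual width and peaks of one shared width. With 1 width shared by so many weak peaks, their 380 bp was not read as a length of bound DNA and is not set against the 293 bp of the strongest.

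**Figure D3:**
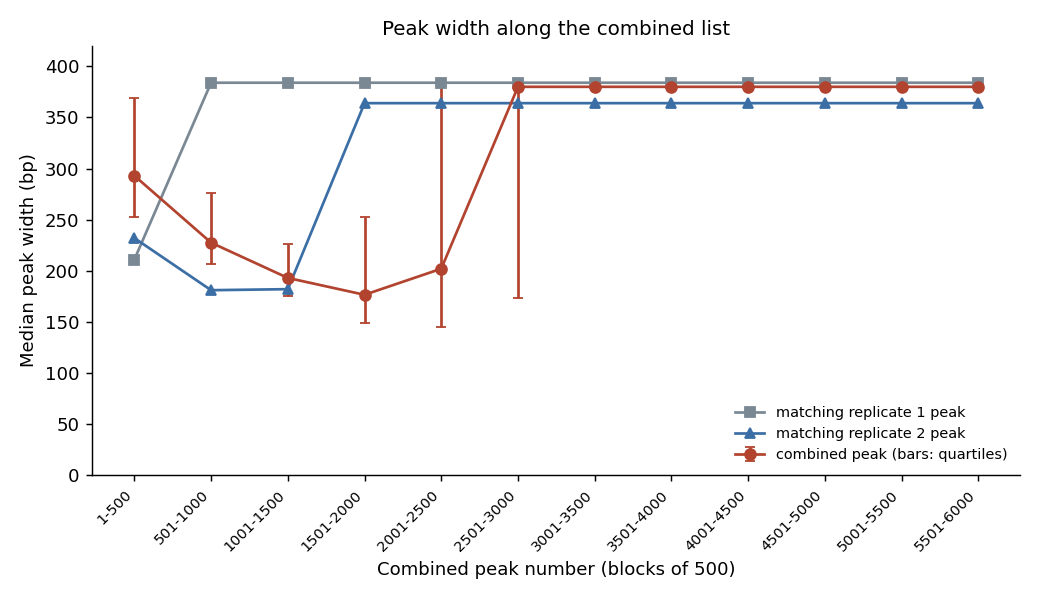
Median width in bp of combined peaks (circles, bars from the lower to the upper quartile) and of their matching replicate 1 (squares) and replicate 2 (triangles) peaks, for each complete block of 500 combined numbers. Combined peaks go from a median of 293 bp in the first block to 176.5 bp in the fourth and then to 380 bp; replicate 1 matches are below their shared width of 384 bp only in the first block, and replicate 2 matches below 364 bp in the first 3.

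The replicates showed the same change at different points of the list. The replicate 1 peaks at the strongest sites had a median width of 211 bp (range 96 to 601 bp), and 55 of them (11%) had that list's commonest width of 384 bp. In the second block this share was already 64.5%. In replicate 2 the median was 232 bp (129 to 729 bp), and 5 sites (1%) had the commonest width of 364 bp, against 10.2% in the second block. Combined peaks were wider than the matching replicate 1 peak at 449 of the 498 sites (90.2%), against 36.7% in the second block and 5.51% above 500. They were wider than the matching replicate 2 peak at 494 (99.2%), against 90.4% and 82.4%. A shared width of 380 bp is always below 384 bp and above 364 bp. The shares above 500 therefore largely restate these shared widths and are not read as a contrast with the strongest sites. The 36.7% of the second block is not read so either. Of its replicate 1 matches, 64.5% had the shared 384 bp, wider than most of its combined peaks (upper quartile 275.8 bp).

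By each replicate's own numbering the pattern was alike. The first 500 numbers of replicate 1 had a median width of 207.5 bp on the nuclear chromosomes (n = 486), and the next 500 a median of 384 bp. In replicate 2 the medians were 233.5 bp (n = 490), then 179 bp and 161 bp for the next 2 blocks, and 364 bp past number 1500. The strongest peaks were thus wider than those next in rank in replicate 2, while in replicate 1 the shared width already took over just past number 500.

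Width also varied inside the set. It was greatest among numbers 1 to 100, with a median of 336.5 bp and 22 sites of 500 bp or more. Among numbers 401 to 500 the median was 259.5 bp, with 2 such sites. In between, the medians were 294, 295 and 277 bp. Combined number and width correlated with Spearman rho -0.374 over the 498 sites, and the width of the matching peak with rho -0.38 in replicate 1 and -0.513 in replicate 2. These are descriptions over sites of shared libraries, with no p.

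The widest site was on chromosome III at 8801296 to 8802284, 989 bp, with combined number 148 and replicate numbers 62 and 265. Of the next 4, 3 lay on X. They were at 6749044 to 6749855 (812 bp, number 367), at 8036031 to 8036820 (790 bp, number 41) and at 14525439 to 14526217 (779 bp, number 31). The fifth was on chromosome V at 8038994 to 8039685 (692 bp, number 380). At the other end, the narrowest sites were 205 to 211 bp wide and all had combined numbers from 428 to 492. The narrowest lay on chromosome II at 9282810 to 9283014, with replicate numbers 395 and 590.

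Some regions overlapped more than 1 peak of a replicate, by at least 1 bp each. At least 2 peaks of replicate 1 overlapped 62 of the 498 regions (12.4%, against 20.1% of peaks above 500). At least 2 of replicate 2 overlapped 44 (8.84%, against 16.1%), and at least 2 of each overlapped 22 (4.42%, against 5.99%). In all, 84 regions (16.9%, 13.7 to 20.5) overlapped several peaks of a replicate, against 29.1% of all combined peaks. Their median width was 379.5 bp, and that of the 414 others 285 bp. A wider region can overlap more peaks by its width alone, so the difference in width is not a separate observation. Of the 498 regions, 14 were listed under several numbers, 12 of them with a repeat above 500. Among the 5644 other regions, 21 were listed more than once. Another combined peak was overlapped by 16 of the 498 (3.21%), against 4.31% of peaks above 500. Some of these repeated or overlapping regions are among the 84.

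The strongest sites were spread over the chromosomes much as the weaker ones were. X held 105 of the 498 (21.1%, 17.6 to 24.9), where 20% of all combined peaks lie, and chromosome III held 97 (19.5%, 16.1 to 23.2), where 17.1% of all lie. Chromosomes I, II, V and IV followed with 78, 77, 72 and 69 sites. For each of the 6 chromosomes the share among peaks above 500 lay inside the interval of the strongest sites: 15.8% for I, 16.9% for II, 16.9% for III, 14.6% for IV, 15.9% for V and 19.9% for X. No test was made, because sites on a chromosome lie in groups and only 2 libraries stand behind them.

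**Figure D4:**
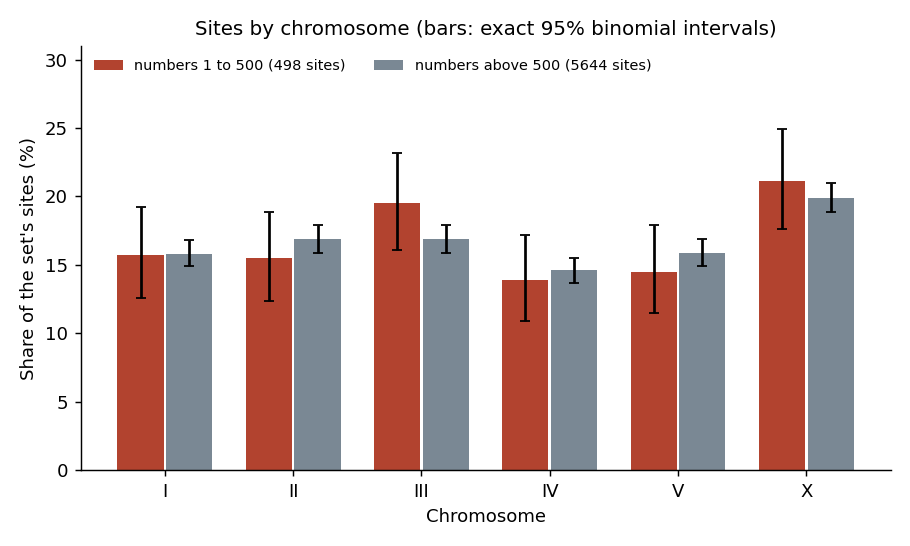
Bars give the share in percent of the 498 strongest sites and of the 5644 combined peaks numbered above 500 that lie on each chromosome, with exact 95% binomial intervals, which take sites as independent. The shares above 500 lie inside the intervals of the strongest sites on all 6 chromosomes.

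Relative to length, taken up to the last deposited peak base, chromosome III had the most of these sites, 7.04 per Mb, followed by X with 5.93. Chromosomes I and II had 5.18 and 5.04 per Mb, and chromosomes IV and V the fewest, 3.95 and 3.44. The order among peaks above 500 was nearly the same, with 69.2 per Mb on III, 63.4 on X, 62.5 on II, 59.2 on I, 47.2 on IV and 42.9 on V. Inside the set, X was most frequent at the very top. It held 31 of the first 100 sites, then 16 of 99, 16 of 99, 24 of 100 and 18 of 100 in the steps of 100 numbers that followed. This step was noticed in the counts and has no test.

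When each chromosome was divided into 3 equal parts, the middle parts held 214 of the 498 sites (43.0%, 38.6 to 47.5), against 41.7% of all combined peaks. On the autosomes the share was 44.0% (39.0 to 49.1), with 43.6% for peaks above 500. On X it was 39.0% (29.7 to 49.1), with 33.3% (30.5 to 36.1). Both differences are within the intervals of the strongest sites. Long stretches held none of them. The longest was 2114019 bp on chromosome V, between the centres at 3391218 and 5505237, and the longest on X was 1032507 bp.

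The strongest sites were mostly far from each other. The median distance between a site's centre and that of the nearest other one was 54959 bp (quartiles 12839 and 127726 bp), and over the 11 other blocks of about as many peaks it ran from 50783 to 63328 bp. Another of the strongest sites lay within 5 kb of 78 of the 498 (15.7%, 12.6 to 19.2), while 11.3% of all combined peaks had one of these sites so near. Measured in the same way inside the other 11 blocks, the share was 10.3 to 15.3%. The strongest block was thus just above the highest of them, by 78 sites against 76, and its interval includes part of that range. In each replicate's own list, the first 500 nuclear peaks gave 16.4% in replicate 1, inside the 9.2 to 18% of the next 11 blocks, and 18% in replicate 2, above the 7.6 to 15.6% there.

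Chained at gaps of up to 5 kb, 420 sites stood alone, 58 formed 29 pairs, 12 formed 4 groups of 3 and 8 formed 2 groups of 4. The other blocks had 21 to 33 pairs, 0 to 4 groups of 3 or more, and no group larger than 3. The number of pairs was therefore within the range of the weaker blocks. Groups of 3 or more (6) and of 4 (2) were above it, as counts too small to set apart.

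The groups of 4 were on chromosome III and on X. On chromosome III the sites numbered 282, 276, 32 and 81 followed each other within 5536 bp (1921209 to 1926744), with gaps of 1308 to 2285 bp between centres and 1 weaker combined peak among them. On X, numbers 47, 145, 46 and 296 spanned 10640 bp (11056928 to 11067567), with gaps of 2434 to 3921 bp and 3 weaker peaks. Both groups mixed sites of the first 100 numbers with sites numbered above 200.

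Of the groups of 3, those on chromosome I lay at 10403722 to 10407906 (numbers 284, 239 and 413) and at 13061111 to 13066145 (numbers 455, 42 and 207). Those on X lay at 4520001 to 4524256 (numbers 452, 407 and 358) and at 6737357 to 6744314 (numbers 99, 303 and 181). The last of these contained 5 further combined peaks above 500, more than any other group, and it includes the site whose replicate numbers were 1237 and 26. Chromosomes II, IV and V had no group of 3 or more, and on chromosome II the closest gap between members was 6646 bp.

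No pair of the strongest sites had centres closer than 971 bp. That pair was on chromosome IV, at 15471454 to 15471719 (number 92, replicate numbers 53 and 201) and 15472424 to 15472691 (number 182, replicate numbers 147 and 309). The next closest were 1041 bp apart on chromosome V (numbers 156 and 408) and 1308 bp on chromosome III (numbers 32 and 81), followed by 1422 bp (numbers 86 and 74) and 1443 bp (numbers 239 and 413), both on chromosome I. Inside the other 11 blocks the closest pairs were 61 to 725 bp apart. In the replicates' own lists the first 500 nuclear peaks showed no such distance: their closest pair was 226 bp apart in replicate 1, where the other 11 blocks had 199 to 1215 bp, and 599 bp in replicate 2, where they had 208 to 719 bp.

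Most of the strongest sites had weaker combined peaks nearby, about as often as other sites did. At least 1 combined peak numbered above 500 lay within 5 kb of 321 of the 498 (64.5%, 60.1 to 68.7), against 66.7% of all combined peaks and 66.9% (65.6 to 68.1) of those above 500. The number within 5 kb was 1.43 ± 1.56 per site (SD, n = 498) and 1.40 ± 1.47 for peaks above 500 (n = 5644). Any other combined peak, strong or weak, lay within 5 kb of 340 sites (68.3%), against 68.8% of all. No difference in crowding was detectable at this scale. The intervals overlap, and the median distance to the nearest combined peak was 2514 bp (95% interval of the median 2163 to 2818) against 2426 bp (2304 to 2542). With the first 500 nuclear peaks of a single replicate in place of the combined set, the difference took opposite directions. Only the next 5500 nuclear peaks of that replicate counted as weaker peaks here, not its whole list. In replicate 1 a weaker peak was near 62.6% of the first 500 and 68.1% of those 5500, and in replicate 2 near 68% and 63.7%.

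The arrangement inside those 5 kb differed slightly. Weaker combined peaks were less dense at 250 to 500 bp from the strongest sites (0.0201 per kb and site, 5 peaks in all) than at 250 to 500 bp from peaks above 500 (0.0361). The second block of 500 numbers had the same 0.0201, also from 5 peaks, so this was not particular to the strongest sites. At 750 to 1000 bp the densities were 0.157 around the strongest sites and 0.201 around peaks above 500. They were higher around the strongest sites at 1000 to 1500 bp (0.223, 111 peaks, against 0.191) and at 2000 to 3000 bp (0.174 against 0.153). From 3 to 5 kb they were 0.124 and 0.127. Within 1 kb, 91 of the strongest sites (18.3%, 15.0 to 22.0) had another combined peak and 22.0% (20.9 to 23.1) of those above 500 did. These intervals overlap, and the share of the strongest sites was below the 19.5 to 26.5% of the 11 other blocks.

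**Figure D5:**
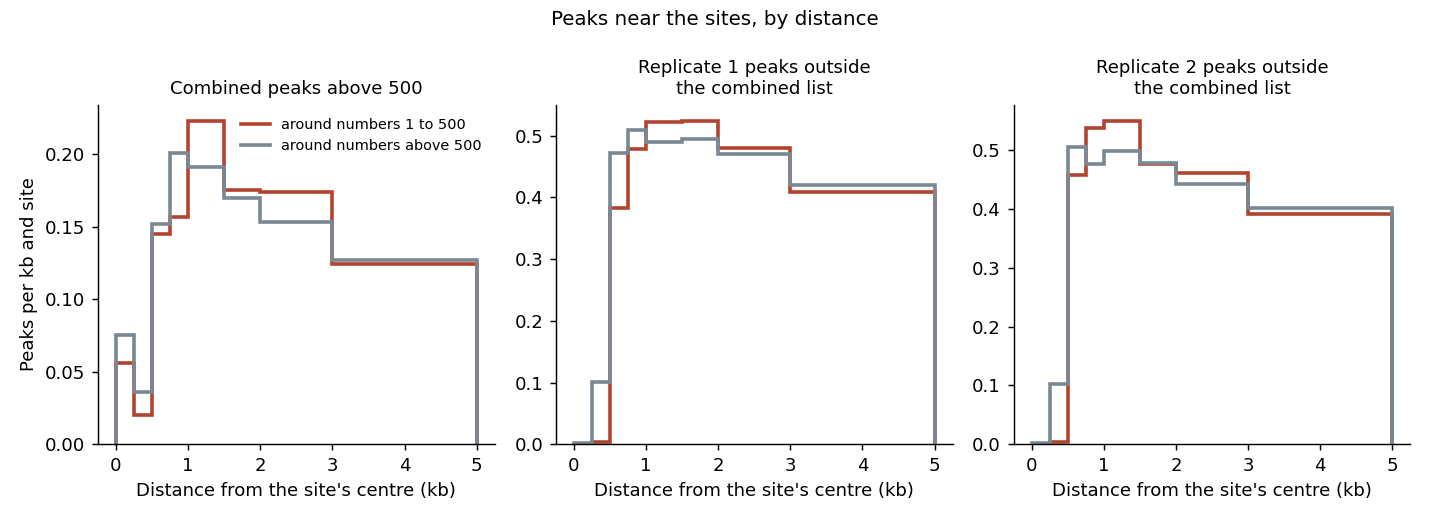
Density of neighbouring peaks (peaks per kb and site, y axis) by distance from the site's centre (x axis, kb) around the 498 strongest sites and around the 5644 combined peaks above 500, for combined peaks above 500 (left) and for replicate peaks that overlap no combined peak (middle and right). The curves run close together beyond 1.5 kb, and between 250 and 500 bp the replicate peaks outside the combined list are nearly missing around the strongest sites, with 1 peak in each replicate. The second block of 500 numbers, not drawn, had 8 and 5 there.

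Replicate peaks that overlapped no combined peak were common near both kinds of site. There were 22909 such regions in replicate 1 and 18258 in replicate 2. At least 1 lay within 5 kb of 478 of the strongest sites in replicate 1 (96.0%, 93.9 to 97.5, against 95.6% of all combined peaks) and of 451 in replicate 2 (90.6%, 87.6 to 93.0, against 92.7%). One found in both replicates lay within 5 kb of 389 (78.1%, 74.2 to 81.7, against 78% of all). Each site had 4.07 ± 2.48 of them (SD, n = 498) in replicate 1 and 4.01 ± 2.67 in replicate 2, and peaks above 500 had 4.15 ± 2.50 and 4.02 ± 2.63 (n = 5644). These levels did not differ beyond the intervals, except that the replicate 2 share of the strongest sites was at the lower edge of the other 11 blocks (90.7 to 94.8%).

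Directly beside the strongest sites these peaks were nearly missing. Between 250 and 500 bp from the centre there was 1 in replicate 1 and 1 in replicate 2 around 498 sites (0.00402 per kb and site in each). Around the 5644 peaks above 500 there were 286 and 287 (0.101 and 0.102). They were also scarce around the 498 peaks of the second block of 500 numbers, with 8 and 5 (0.0321 and 0.0201). Between 500 and 750 bp the densities were 0.382 and 0.458 around the strongest sites and 0.472 and 0.505 around peaks above 500. Between 1 and 1.5 kb they were 0.522 and 0.550 against 0.489 and 0.499. Peaks overlapping a combined peak are left out of these counts by definition, which leaves few or none in the first 250 bp: 0 in each replicate around the strongest sites, and 4 and 7 around the 5644 others.

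The gap did not rest on that definition. Counting every distinct replicate peak, whether in the combined list or not, 6 of replicate 1 and 7 of replicate 2 were centred 250 to 500 bp from the 498 strongest sites (0.0241 and 0.0281 per kb and site). Around peaks above 500 there were 699 and 570 (0.248 and 0.202). The second block of 500 numbers had values in between, 30 and 26 peaks around 498 sites (0.120 and 0.104). At 1 to 1.5 kb the order was the other way, with 0.807 and 0.817 around the strongest sites and 0.744 in each replicate around those above 500. Both replicate lists thus held few separate peaks at the immediate edge of the strongest sites, a description with no test. Whether this reflects how the calling treats the flanks of a strong peak was not tested, and no read signal was used here.

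Width and crowding moved together within the set. The 91 sites with another combined peak within 1 kb had a median width of 336 bp (95% interval of the median 313 to 383). The 249 sites whose nearest neighbour was 1 to 5 kb away had a median of 295 bp (289 to 307), and the 158 with none within 5 kb had 262.5 bp (254 to 278). The matching replicate peaks had the same order, with medians of 230, 217 and 196 bp in replicate 1 and 264, 235 and 209 bp in replicate 2. Width and distance to the nearest combined peak correlated with Spearman rho -0.368 in the combined list, -0.169 with replicate 1 widths and -0.331 with replicate 2 widths (n = 498, no p). Whether close neighbours were joined into wider regions was not tested.

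Rank and crowding did not move together in this way. Combined number and distance to the nearest combined peak had a rho of -0.0171 over the 498 sites. The number with a weaker combined peak within 5 kb was 58 of 100 among numbers 1 to 100, then 65 of 99, 66 of 99, 65 of 100 and 67 of 100. The first 10 sites were mixed in this respect. Those numbered 5 to 9, which lie on chromosomes III, X and IV, had no other combined peak within 5 kb, and their nearest ones were 5754 to 31971 bp away. Numbers 1 to 4 and number 10 had from 1 to 4 combined peaks within 5 kb. None lay so near for 158 of the 498 sites and for 1756 of the 5644 peaks above 500.

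The 5 sites named as most crowded lay on X, V and II. Around the X site numbered 181 there were 10 other combined peaks within 5 kb, 9 of them above 500. The X site at 6741916 to 6742448 (number 303, replicate numbers 283 and 318) had 8 weaker and 2 strong neighbours and is 1 of the same group of 3. On chromosome V, the site at 6224334 to 6224932 (number 273, replicate numbers 132 and 524) had 8 weaker neighbours and 1 strong one. Another X site, at 15276741 to 15277001 (number 354), had 8 weaker neighbours, and the site on chromosome II at 10551779 to 10552235 (number 64, replicate numbers 74 and 69) had 7. These 5 sites were 261 to 655 bp wide. The last place was tied: number 159 on V and number 413 on chromosome I also had 7 other combined peaks within 5 kb, strong ones included.

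The most isolated site was on chromosome IV at 16656291 to 16656526 (number 392, replicate numbers 426 and 447), with 154328 bp to the nearest combined peak. It was followed by 102130 bp at a site on chromosome V at 15766250 to 15766488 (number 371, replicate numbers 320 and 565) and 68859 bp at another on V at 12728329 to 12728568 (number 457, replicate numbers 408 and 603). The best ranked of the isolated sites was on chromosome I at 13756386 to 13756675, number 30 of the combined list and numbers 34 and 41 in the replicates, with 58355 bp to its nearest neighbour. The fifth was on chromosome V at 10807964 to 10808194 (number 378, replicate numbers 264 and 693), at 50424 bp. All 5 were 231 to 290 bp wide, below the set's median of 293 bp, and their replicate centres lay 1 to 9 bp apart.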

How the data were processed

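The deposited files used were 3 peak lists, 1 for each ChIP replicate and 1 combined, with start and end positions on WormBase build WS220, per the file headers. Peaks came from SPP and the irreproducible discovery rate procedure, as the deposited lists name them; no version, setting, read depth or way of combining the replicates is stated in these sources. The authors' deposited score, of unstated scale, was used only to find its ceiling. The lists are authors' output and no reads were used.

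Rows repeating a chromosome, start and end were dropped, keeping the lowest number. A combined peak was matched to the best-numbered replicate peak sharing at least 1 bp. Distances are between centres. Chromosomes were taken up to the last deposited peak base and cut into 3 equal parts. Shares have exact (Clopper-Pearson) 95% intervals and medians exact order-statistic intervals. No p-values were computed, because peak number chose the sites, sites are not replicates and the design has 2 ChIP samples. The set, the sites named by rank, width, offset or spacing, and the comparisons were chosen with earlier results of these data known. The naming rule took, by number and position, the first 10, the sites at number 500, and the 5 most extreme for each property. Its gene part was not applied, because the gene table follows another build (WBcel235). Matching and spacing were tested on simulated lists. Software was scipy 1.17.1, numpy 2.4.6 and pandas 2.3.3 under Python 3.11.15, with figures from matplotlib 3.10.9.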

Additional observations from a re-analysis of the deposited data

Results flagged for a closer look

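Signal outside the combined list was present among the first 500 numbers of each replicate. In replicate 1, 13 distinct regions overlapped no combined peak, 10 of them on mitochondrial DNA and 3 on nuclear chromosomes. The nuclear ones were on chromosome V at 8500426 to 8500609 (number 359), on chromosome II at 12944554 to 12944746 (number 385) and on chromosome I at 7961858 to 7961986 (number 492). The chromosome II region lies directly beside 1 of the strongest sites, at 12944800 to 12945071 (combined number 461), without overlapping it. In replicate 2 there were 2 such regions, both mitochondrial. No Input values were set beside them.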

How the results depend on the processing

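Of 39 alternatives over 8 values of the strongest sites, 23 stayed within the 95% interval of the reported value and 16 moved beyond it, most of them by construction, since they change the distance, the length of a list or the number of sites. The share within the first 1000 of both replicates was 83.1% with reciprocal 50% overlap, 99.6% for the first 250 sites and 71.2% for the first 1000. The offset between replicates had a median of 14 bp for the first 1000. Median width was 310 bp for the first 250 and 261 bp for the first 1000. At 2 kb, another strong site was near 5.82% (5.63% within weaker blocks), a weaker combined peak near 41.6% (41.4% for peaks above 500) and a peak of both replicates outside the combined list near 49.4% (50.9%). At 10 kb these shares were 22.7% (19.6%), 80.5% (81%) and 86.5% (88.2%). A weaker peak from the better-numbered 50% of the combined list was near 43.8% (41.4%), so that the order turned here, as it did at 2 kb and without replicate 1 (68% against 63.7%). For this share and the central share, leaving out a replicate meant taking the other's first 500 nuclear peaks and only its next 5500. With the first 10000 peaks of each replicate, an outside peak was near 21.1% (22.5%). Without replicate 1 the outside share was 90.6% (92.9%) and without replicate 2 it was 96% (95.5%), because a peak then had to be in 1 list only. The central share exceeded that of weaker peaks in the combined list and not when either replicate was left out (41.6% against 42.9% and 42% against 43.3%). Nor did it for the first 250 sites (40.7% against 41.7%) or the first 1000 (41.7% against 41.7%). Offsets at the commonest width gave no value, since no site has that width. No paired analysis was possible because the peak lists of 2 ChIP samples hold 1 group only and no result comes from a test. With read depth unknown, a peak missing from a list may be one too weak to be listed.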
